A study of Mus musculus with 6 samples.

Results

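The miR-181 family was examined in mouse hepatoma tumours. Its members were taken by name from the array annotation: mmu-miR-181a-5p, mmu-miR-181b-5p, mmu-miR-181c-5p and mmu-miR-181d-5p, that is 4 of the 1881 mouse miRNAs with probes. The signal was strong enough for a test in 2 of the 4, miR-181a-5p and miR-181b-5p, which are among the 388 miRNAs tested in all. The prefix mmu, for mouse, is left out from here on.

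Each of the 6 arrays carried total RNA from the tumour of 1 C57BL/6 mouse, inoculated in the right flank with 0.1 ml of Hepa1-6 cells, a mouse hepatoma line. The GLE group (n = 3) was given GLE, whose full name is not in the labels, at a daily total of 0.023 g, stated for a body weight of 10 g and without a route or a duration. In the model group (n = 3) the mice received 0.2 ml of 0.9% NaCl once a day for 28 days, and their treatment is labelled none. The age given for all 6 samples is 28 d, without saying whether it counts from birth or from inoculation, and no genotype besides the strain is given. A tumour holds the injected cells and cells of the host. In such bulk RNA, fewer cells of a type and less RNA per cell cannot be told apart. Of the listed hepatocyte markers, miR-122-5p passed the detection rule on 1 GLE array and 1 model array and miR-802-5p on 0 of 6. By contrast, miR-192-5p passed on all 6, and miR-194-5p on 3 GLE arrays and 2 model arrays.

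A mature miRNA guides the Argonaute protein to messenger RNAs, mainly by pairing through its seed, bases 2 to 8 from the 5′ end, and lowers their translation and stability. The miR-181 family is known for its part in lymphocyte development: miR-181a is abundant in thymocytes, where it tunes the sensitivity of the T cell receptor by repressing several phosphatases, and miR-181b restrains inflammatory signalling in endothelial cells. In human liver cancer, members of the family have been linked to cells with stem-like properties.

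The RefSeq table (GRCm38.p6) held all 4 mature members, encoded by 6 hairpin genes on 3 chromosomes. The mature sequences are shown because the 4 differ in so few bases that the resolution of the array depends on them. Capitals mark the seed.
miR-181a-5p: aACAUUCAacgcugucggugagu
miR-181b-5p: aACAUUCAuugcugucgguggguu
miR-181c-5p: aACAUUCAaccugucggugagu
miR-181d-5p: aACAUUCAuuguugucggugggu
The 4 share 1 seed, ACAUUCA, and of 1679 mature mouse miRNAs in the table no others carry it. Counting from the 5′ end, miR-181b-5p differs from miR-181a-5p by A9U, C10U and A21G and by 1 further base at the 3′ end. miR-181d-5p differs from miR-181b-5p by C12U and lacks that last base. miR-181c-5p differs from miR-181a-5p by an edit distance of 1, being 1 base shorter. In sequence the family thus pairs a with c and b with d, whereas in the genome it pairs a with b and c with d.

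Each member had 2 probes, DNA strands complementary to the 3′ part of the miRNA. They are printed 5′ to 3′, and capitals mark the bases that do not pair with the closest other member of the family in the best ungapped placement (for both probes of a and the 13-base probe of b other members tie, and the capitals are drawn against b for a and against a for b).
miR-181a-5p, 13 bases: acTcaccgacagc
miR-181a-5p, 14 bases: acTcaccgacagcG
miR-181b-5p, 13 bases: acCcaccgacagc
miR-181b-5p, 14 bases: acccaccgacaGca
miR-181c-5p, 19 bases: actcaccgacagGTtGAaT
miR-181c-5p, 18 bases: actcaccgacagGTtGAa
miR-181d-5p, 16 bases: acccaccgacaAcaat
miR-181d-5p, 17 bases: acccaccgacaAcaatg
In these placements, 1 base separates the 13-base probe of miR-181a-5p from miR-181b-5p, and likewise 1 from miR-181c-5p. Both probes of miR-181d-5p are separated from miR-181b-5p by 1 base, and the probes of miR-181c-5p from miR-181a-5p by 4 and 5 bases, a count that allows no gap for the base that miR-181c-5p lacks. How far a member bound to the probe of another was not tested.

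The annotation in the files places the 14-base probe of miR-181a-5p at both chr1:139863054-139863067 and chr2:38708270-38708283 (mm9, plus strand). The 14-base probe of miR-181b-5p lies at chr1:139863236-139863249 and at chr2:38709374-38709387, which leaves 168 bases between the probes of a and b on chromosome 1 and 1090 on chromosome 2. Signal from the chromosome 1 and chromosome 2 copies was therefore read as 1 value per miRNA. The files list the 19-base probe of miR-181c-5p at chr8:86702792-86702809 and the 17-base probe of miR-181d-5p at chr8:86702628-86702643, both in descending order (minus strand) and each 1 base shorter than the probe. In RefSeq's gene order on GRCm38.p6, Mir181a-2 and Mir181b-2 lie within the spans of Nr6a1 and Nr6a1os, Mir181a-1 and Mir181b-1 lie next to each other in no other gene's span, and Mir181c and Mir181d lie between Nanos3 and Mir23a. Exon and intron positions were not looked up, since no annotation of mm9 was used here.

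The 6 arrays sat on 1 slide and were read in 1 scan. In the array position code of the headers, the first index was 1 for all GLE arrays and 2 for all model arrays, so position on the slide by this index and treatment cannot be told apart. The second index was 1, 3 and 4 for replicates 1, 2 and 3 in both groups. Each array was scaled by a 75th percentile, taken over the 636 probes that passed detection everywhere, which lay between 203 and 364 intensity units. Saturation touched 0 of the 56430 spots of each array. The number of arrays limits the precision.

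miR-181a-5p and miR-181b-5p were measured in every tumour. Detection of a probe required that a share above 0.5 of its replicate spots on that array be well above background in the scanner software's call. For miR-181a-5p 88 of 88 spots met that call on the GLE arrays and 90 of 90 on the model arrays, and for miR-181b-5p the counts were 89 of 89 and 87 of 87. The SD over the 12 to 15 spots of a probe on 1 array was 4.47% to 14.7% of its mean signal for these 2 miRNAs over all 6 arrays.

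For miR-181a-5p, the log2 level relative to the array's 75th percentile was −2.24, −2.08 and −2.13 in GLE tumours 1, 2 and 3, and −1.99, −2.24 and −2.27 in model tumours 1, 2 and 3. The GLE values lay inside the range of the model values, whose highest was tumour 1. The 3 GLE tumours averaged −2.15 ± 0.082 (SD) and the 3 model tumours −2.17 ± 0.151 (SD). GLE minus model was 0.017 ± 0.16 (SE) on the log2 scale, a ratio of 1.01 with a 95% interval of 0.774 to 1.32 (limma, adjusted p = 0.975 over the 388 tested miRNAs). Its sign changed under 9 of 16 alternatives of processing or of left-out arrays, and its value ran from −0.072 with the percentile over all probes to 0.10 without model replicate 1.

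For miR-181b-5p, the log2 level was −2.55, −2.40 and −2.67 in GLE tumours 1, 2 and 3, and −2.27, −2.50 and −2.41 in model tumours 1, 2 and 3. GLE tumours 1 and 3 held the lowest values, and GLE tumour 2 stood within the model range. The 3 GLE tumours averaged −2.54 ± 0.133 (SD) and the 3 model tumours −2.39 ± 0.115 (SD). GLE minus model was −0.15 ± 0.16 (SE), a ratio of 0.904 with a 95% interval of 0.690 to 1.18 (limma, adjusted p = 0.935). The difference was negative in all 16 alternatives, and the adjusted p was 0.433 or higher in each. Blocking by replicate number and the 2 other detection filters could not change the difference of either miRNA, as the same arrays and probes entered.

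Between arrays of the same replicate number, which share the second position index, GLE minus model was −0.25, 0.16 and 0.14 for miR-181a-5p and −0.28, 0.10 and −0.26 for miR-181b-5p in numbers 1, 2 and 3. The sign was thus not the same in every pair for either miRNA.

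**Figure D1:**
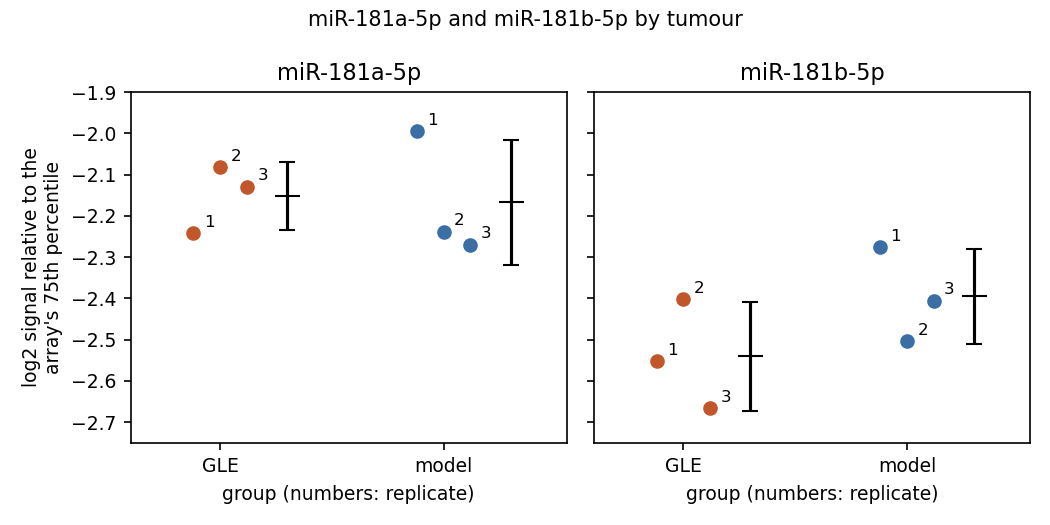
Log2 signal of miR-181a-5p (left) and miR-181b-5p (right) relative to each array's 75th percentile, for GLE and model tumours. Points are tumours with their replicate number, and black bars are the group mean ± SD (n = 3). The groups overlap for both miRNAs, with GLE means of −2.15 and −2.54 against model means of −2.17 and −2.39.

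Of the 2 tested members, 0 passed the adjusted threshold of 0.05, where 0% of all 388 tested miRNAs did (0 called by limma, smallest adjusted p = 0.935, and 6 at an unadjusted p under 0.05). The groups were fully apart for 0 of the 2, and for 6.7% of all tested miRNAs (4.64% higher and 2.06% lower in GLE tumours). The intervals leave room for a level of miR-181a-5p up to 1.32 times and of miR-181b-5p down to 0.690 times that of the model tumours. These p-values rest on 3 mice per group. In the fit, limma drew each miRNA's variance toward a value shared by all tested miRNAs (4 residual and 3.05 prior degrees of freedom). The intervals thus do not rest on the spread of these 2 miRNAs alone.

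Both miRNAs varied little from tumour to tumour. The SD over all 6 arrays was 0.109 for miR-181a-5p and 0.137 for miR-181b-5p on the log2 scale, where the median over the tested miRNAs was 0.282. Of the 388, 20 had a smaller SD than miR-181a-5p and 44 a smaller SD than miR-181b-5p. The difference of miR-181a-5p ranked 201 from the lowest of the 388, near the overall median of 0.0078, and that of miR-181b-5p ranked 94.

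**Figure D2:**
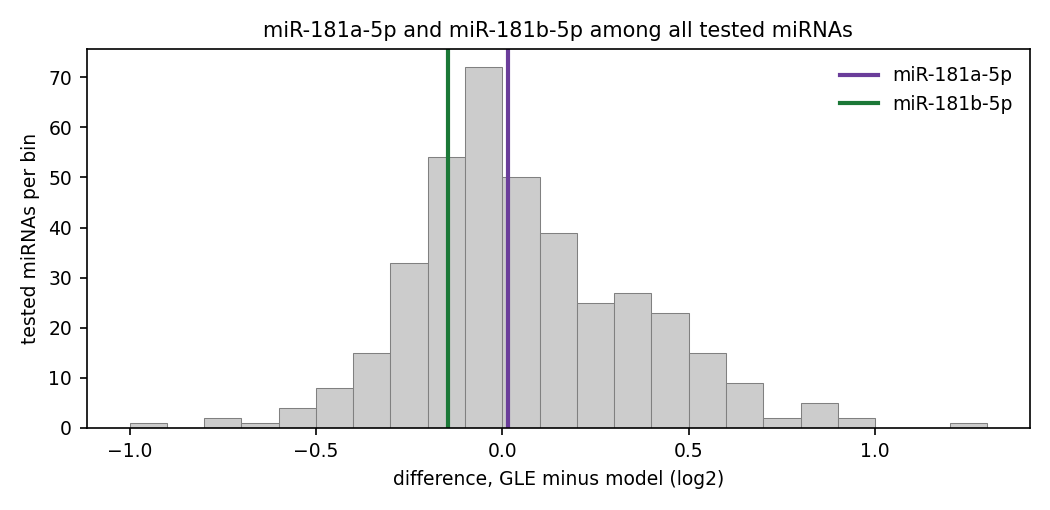
Histogram of the difference between GLE and model tumours (GLE minus model, log2) for the 388 tested miRNAs, in number of miRNAs per bin. The vertical lines mark miR-181a-5p at 0.017 and miR-181b-5p at −0.15, both inside the bulk of the distribution.

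The separate probes were compared as well. The 13-base and the 14-base probe of miR-181a-5p differed between the groups by 0.038 and −0.0050 on the log2 scale, and those of miR-181b-5p by −0.19 and −0.097. Both probes of miR-181b-5p had a negative difference, and those of miR-181a-5p lay on either side of 0. Before scaling, the 14-base probe of miR-181a-5p had 74.5, 148 and 95.8 intensity units in GLE tumours 1, 2 and 3, and 138, 88.1 and 75.2 in model tumours 1, 2 and 3. The 14-base probe of miR-181b-5p had 45.9, 91.6 and 48.9 in the same GLE tumours and 81.7, 51.6 and 51.0 in the model tumours. GLE tumour 2 and model tumour 1 were brightest for both probes before scaling. The 13-base probe of miR-181a-5p had 24.7, 49.8 and 31.6 intensity units in GLE tumours and 44.6, 27.2 and 25.3 in model tumours, and that of miR-181b-5p 26.1, 51.7 and 29.4 in GLE tumours and 51.1, 32.1 and 31.0 in model tumours, with the same 2 tumours brightest.

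miR-181a-5p and miR-181b-5p are transcribed next to each other at both of their loci, so their balance was compared as well. The levels of different probes cannot be set against each other. The log2 value of miR-181a-5p minus that of miR-181b-5p was therefore centred on its mean over the 6 arrays, so that it shows only the change between arrays. It was 0.0022, 0.012 and 0.23 in GLE tumours 1, 2 and 3, and −0.028, −0.042 and −0.17 in model tumours 1, 2 and 3. The GLE values lay above the model values without overlap, by a narrow margin between GLE tumour 1 and model tumour 1, and the group means were 0.162 apart, or 0.088 without GLE replicate 3. This contrast was chosen after its values were seen and was not tested. Over all 75078 pairs of tested miRNAs, the same kind of contrast did not overlap between the groups in 8.45%, and in 67.7% of the pairs the group means were at least as far apart. With each miRNA read from 1 probe, GLE minus model ran from 0.092 to 0.23 over the 4 combinations, and the groups overlapped in the 2 that used the 14-base probe of miR-181b-5p.

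The pair on chromosome 8 was close to the limit of detection. No probe of miR-181c-5p or miR-181d-5p passed the detection rule on any array, so neither was tested. On GLE arrays 10 of 87 spots of miR-181c-5p (11.5%) were well above background, against 1 of 89 (1.12%) on model arrays. For miR-181d-5p it was 11 of 89 spots (12.4%) on GLE arrays and 1 of 86 (1.16%) on model arrays. Of the GLE spots so called, GLE tumour 2 held 5 for miR-181c-5p and 7 for miR-181d-5p, so the counts were uneven within the group. The call is made before scaling between arrays, and GLE tumour 2 was among the brightest arrays for miR-181a-5p and miR-181b-5p before scaling. The same share over other undetected probes is not given, so these counts do not show a change particular to the pair. Spots of 1 array are not replicates of a condition, and these counts were not tested.

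The signals of the brighter probe of each were low but above most negative control spots. The 19-base probe of miR-181c-5p read 9.49, 13.1 and 13.0 intensity units in GLE tumours 1, 2 and 3, and 10.9, 6.31 and 8.02 in model tumours 1, 2 and 3. The 97.5th percentile of the 1000 negative control spots was 4.48, 5.83 and 5.11 on those GLE arrays and 4.02, 5.35 and 5.96 on those model arrays, below this probe on all 6. The 17-base probe of miR-181d-5p read 7.41, 13.8 and 12.1 intensity units in GLE tumours 1, 2 and 3, and 9.65, 5.19 and 8.61 in model tumours 1, 2 and 3, above that percentile on 3 GLE arrays and 2 model arrays. GLE tumours 2 and 3 were the brightest for both probes, and model tumour 1 lay above GLE tumour 1.

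After scaling, the 19-base probe of miR-181c-5p stood at 4.68%, 3.60% and 5.38% of the array's 75th percentile in GLE tumours 1, 2 and 3, and at 3.49%, 2.73% and 3.81% in model tumours 1, 2 and 3. The 17-base probe of miR-181d-5p stood at 3.65%, 3.78% and 5.03% in GLE tumours and at 3.09%, 2.25% and 4.09% in model tumours. The groups overlapped for both, and GLE tumour 3 was highest for both. The 18-base probe of miR-181c-5p was at 2.12%, 1.91% and 3.11% in GLE tumours and 1.63%, 1.50% and 1.28% in model tumours. It was the 1 of the 4 probes whose groups did not overlap. The 16-base probe of miR-181d-5p was at 1.81%, 1.86% and 2.42% in GLE tumours and 2.00%, 1.25% and 2.09% in model tumours, with overlap. Among the 961 probes detected on no array that had a signal above 0 on every array, 3.23% were likewise separated upward in GLE tumours. The percentages above are without a floor. Only 1 of the 24 values of these 4 probes exceeded 5.24%, the floor to which lower signals were raised for the tests. For that reason no fold between the groups is given.

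**Figure D3:**
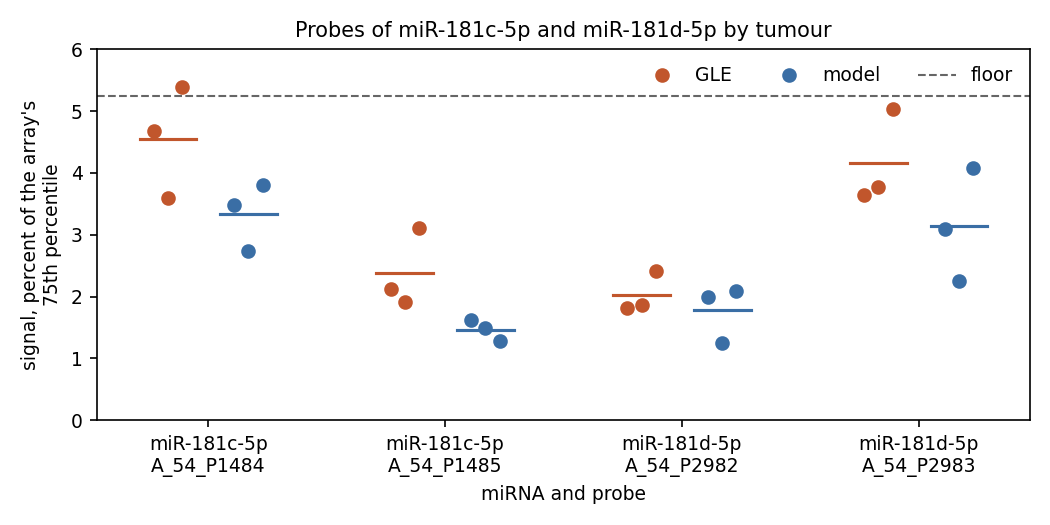
Scaled signal of the 4 probes of miR-181c-5p and miR-181d-5p, in percent of the array's 75th percentile, for GLE and model tumours (points are tumours, short lines are group means). The dashed line is the floor of 5.24%, which 1 value exceeds. The groups separate for the 18-base probe of miR-181c-5p, A_54_P1485, whose values lie near background.

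A less strict call was also read, likewise made before scaling between arrays, and its share over other miRNAs is not given. The scanner software's own call per miRNA marked miR-181c-5p as detected on 3 of 3 GLE arrays and 1 of 3 model arrays, and miR-181d-5p on 2 of 3 and 1 of 3. In the authors' deposited table, miR-181c-5p was listed at 1.04, −0.78 and 0.80 (log2) in GLE tumours 1, 2 and 3, and at −1.01, −3.17 and −3.13 in model tumours 1, 2 and 3. The last 2 are the lowest values of their columns. miR-181d-5p was listed there at −3.20, −0.74 and 0.0086 in GLE tumours 1, 2 and 3, and at −1.75, −3.17 and −3.13 in model tumours 1, 2 and 3, with GLE tumour 1 and model tumours 2 and 3 at the lowest value. Both miRNAs stood above the lowest value on the same arrays that the software's call marked. The deposited values and the call are therefore not counted as separate readings of detection.

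The chromosome 1 and 2 pair and the chromosome 8 pair were also set against each other within arrays. The mean log2 signal of miR-181a-5p and miR-181b-5p minus that of miR-181c-5p and miR-181d-5p, over all their probes without a floor and centred on the 6 arrays, was −0.20, 0.061 and −0.61 in GLE tumours 1, 2 and 3. It was 0.28, 0.45 and 0.021 in model tumours 1, 2 and 3. The groups overlapped, since GLE tumour 2 lay above model tumour 3. They overlapped as well with normexp background correction, with outlier spots kept and with the brightest probe. The normexp setting adds 50 units to every spot, more than any signal of the second pair, so its overlap says little about that pair. In the authors' deposited table they did not, with −0.57, −0.66 and −2.11 in GLE tumours and 0.073, 1.71 and 1.57 in model tumours, where 5 of the values entering come from the lowest value of a column. In that table, 6.09% of the 72944 differences between 1 tested miRNA and 1 untested miRNA at its lowest value on some arrays were apart with GLE lower. Those are differences of single miRNAs, not of means of 2, so the share is not one for the pair contrast. No test and no fold are given, because the second pair was below the detection rule on every array.

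The opposite arms of the same hairpins, which are usually degraded, were near background. Of the 6 listed 3p arms, from miR-181a-1-3p to miR-181d-3p, 0 were detected on any array and 0 were tested, and 0 of their spots were well above background in either group. By the software's weaker flag for a signal that is positive and significant, miR-181a-1-3p, the passenger arm of the chromosome 1 hairpin of a, had 44 of 87 spots flagged on GLE arrays (50.6%) and 41 of 87 on model arrays (47.1%). For the other 5 arms the share ran from 5.56% to 15.9% on GLE arrays and from 2.27% to 14.6% on model arrays. By the same flag, miR-181c-5p had 94.3% of its spots flagged on GLE arrays and 77.5% on model arrays, and miR-181d-5p 92.1% and 80.2%.

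Likeness of profile was measured as the root mean square deviation between 2 miRNAs over the 6 arrays, each centred on its own mean (log2). It favours miRNAs that are equally flat. Between miR-181a-5p and miR-181b-5p it was 0.119. That placed miR-181b-5p at rank 14 of 387 for closeness to miR-181a-5p, and miR-181a-5p at rank 22 of 387 for closeness to miR-181b-5p, where the medians over all were 0.298 and 0.311. Outside the family, the profiles closest to miR-181a-5p were those of miR-221-3p (0.073), miR-24-3p (0.096) and miR-28c (0.097). Closest to miR-181b-5p were miR-27a-3p (0.050), miR-103-3p (0.063) and miR-24-2-5p (0.068). Among these 6 miRNAs GLE minus model ran from −0.079 ± 0.17 (miR-27a-3p) to 0.15 ± 0.16 (miR-28c), and none passed the threshold (limma, adjusted p of 0.935 to 0.973).

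Because miR-181a is abundant in thymocytes, listed miRNAs of blood cells and other cells were read beside the family. All 6 listed lymphoid and myeloid miRNAs were tested, namely both arms of miR-142a, miR-342-3p of blood cells, the myeloid miR-223-3p, miR-150-5p of mature lymphocytes and miR-155-5p of activated ones. Of the 6, 0 passed in either direction, 0 had groups that did not overlap, and their median difference was 0.77, beside 0.0078 over all tested miRNAs. Without GLE replicate 3 that median was 0.40, and without GLE replicate 2 it was 1.17. Their mean log2 level was 0.062, −0.88 and 0.62 in GLE tumours 1, 2 and 3, and −0.98, −1.09 and −0.46 in model tumours 1, 2 and 3. GLE tumour 2 was lowest of its group on this list and highest of its group for miR-181a-5p and miR-181b-5p. Model tumour 1 was highest of its group for both miRNAs and lay between the other model tumours on this list. How far lymphoid cells contributed to the miR-181 signal was not tested.

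In the other lists, 0 members passed in either direction. The 1 tested of 2 endothelial miRNAs, miR-126a-3p, stood at 1.88, 1.52 and 2.00 in GLE tumours 1, 2 and 3 and at 1.44, 1.20 and 1.29 in model tumours 1, 2 and 3. It was the 1 listed miRNA whose groups did not overlap, where 4.64% of all tested miRNAs were apart in that direction, and it differed by 0.49 ± 0.19 (limma, adjusted p = 0.935). The median difference was 0.61 for 5 of 5 fibroblast and smooth muscle miRNAs, and 0.22 without GLE replicate 3 or 0.99 without GLE replicate 2. Within that list the differences were 0.81 (miR-199a-3p), 0.68 (miR-199a-5p), 0.61 (miR-214-3p), 0.27 (miR-143-3p) and −0.026 (miR-145a-5p). In the remaining lists the sign rested on single tumours. Among the hepatocyte miRNAs, miR-194-5p entered the test through the GLE group only, with detection on 3 GLE arrays and 2 model arrays. The median of 2 of 4 hepatocyte miRNAs was 0.51, and −0.58 without GLE replicate 2. That of 3 of 3 skeletal muscle miRNAs was 0.52, and −0.064 without GLE replicate 1. For 2 of 3 erythrocyte miRNAs it was −0.28, and 0.094 without GLE replicate 3 or 0.095 without model replicate 3. For 2 of 5 epithelial miRNAs it was −0.61, with −1.37 without GLE replicate 2 and 0.079 without GLE replicate 3. With each array left out in turn, the medians ran from −0.58 to 1.15 for the hepatocyte list, from −0.064 to 0.85 for muscle, from −0.71 to 0.095 for erythrocyte and from −1.37 to 0.079 for epithelial miRNAs. The 2 tested miR-181 members had a median of −0.065, and no test compared them with these lists.

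**Figure D4:**
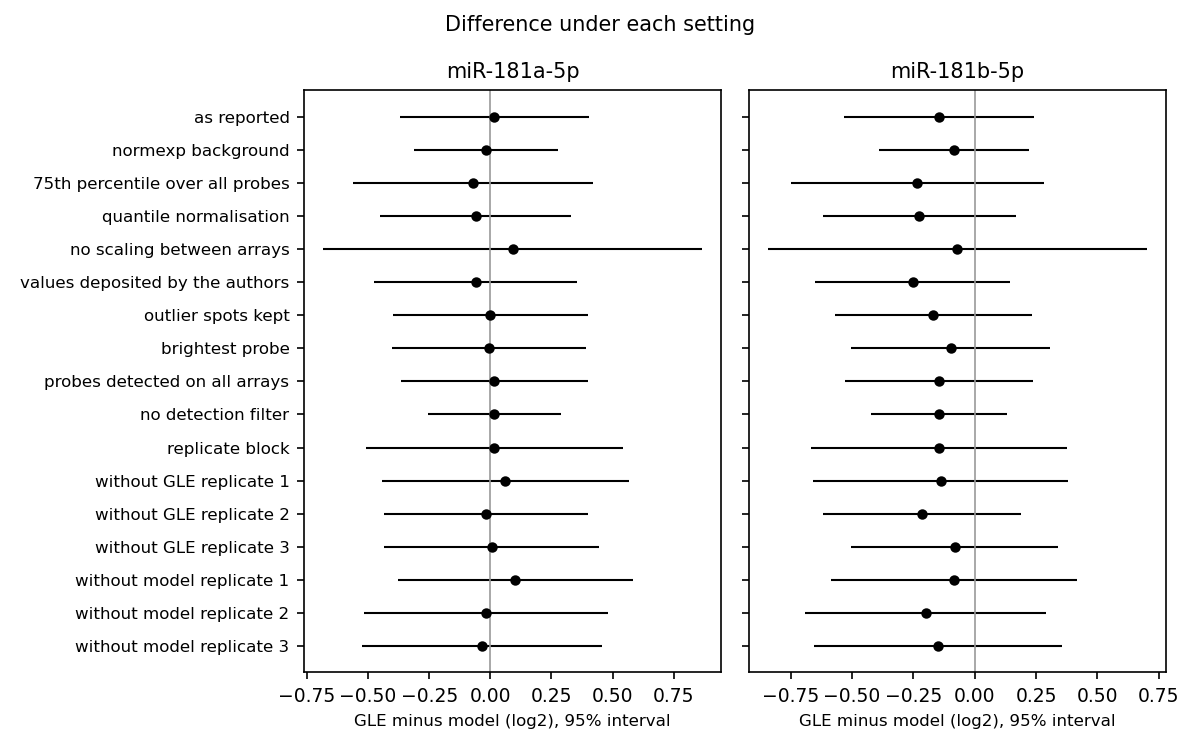
Difference of miR-181a-5p (left) and miR-181b-5p (right), GLE minus model on the log2 scale, with the 95% interval of the limma fit, for the reported setting and each alternative. The interval spans 0 in every row, miR-181a-5p lies on either side of 0, and miR-181b-5p lies below 0 throughout.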

How the data were processed

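Tumour RNA of 6 mice, separate animals per the labels, was hybridised to one-colour (Cy3) Agilent miRNA arrays. The scanner files hold, per the file headers, intensity values per spot from Agilent Feature Extraction 10.7.1.1, with background and a spatial trend subtracted and no normalisation between arrays. The authors' deposited table per miRNA is on a log2 scale, judged by its values, but is not a plain log2 of those signals. For miR-181a-5p it lists 5.01 in GLE tumour 1 and 5.30 in GLE tumour 2. The brighter probe of that miRNA read 74.5 and 148 intensity units there, a larger step on the log2 scale. How the deposited table was made, scaled between arrays and centred is not stated, and it was used as an alternative only.

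Outlier spots (1401 to 1883 per array) were dropped and each probe's remaining spots averaged. Arrays were scaled as described above, floored at −4.25 and put on the log2 scale. Probes that passed detection throughout a group were averaged per miRNA. limma 3.58.1 in R 4.3.3 (lmFit and eBayes, two-sided, 4 residual degrees of freedom) compared GLE with model, with Benjamini-Hochberg adjustment over the 388 miRNAs and a threshold of 0.05. The fit was tested on simulated data. The alternatives were normexp background correction, 3 other scalings, the deposited values, outlier spots kept, the brightest probe, 2 other filters, the replicate block and each array left out.

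Members, lists and tests were chosen with earlier results of these data known. Named miRNAs are the members, their 3p arms, the listed miRNAs and the 3 closest profiles to each tested member. Between arrays, 0 probe values were identical.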

Additional observations from a re-analysis of the deposited data

How the results depend on the processing

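The difference of miR-181a-5p (0.017 in the reported setting) changed sign under 6 of the 10 alternatives that keep every array. Of these 10, the replicate block and the 2 other filters could not change it, for miR-181a-5p or for miR-181b-5p. The difference of miR-181a-5p was −0.018 with normexp background correction, −0.072 with the 75th percentile over all probes and −0.060 with quantile normalisation. It was −0.060 with the authors' deposited values, −0.00017 with outlier spots kept and −0.0050 with the brightest probe. The medians of all tested miRNAs moved too, to −0.080 with the percentile over all probes, −0.059 with quantile normalisation, −0.071 with the deposited values and 0.079 with no scaling. With an array left out the difference ran from −0.035 to 0.10. It was −0.018 without GLE replicate 2, −0.019 without model replicate 2 and −0.035 without model replicate 3. miR-181b-5p stayed negative, from −0.25 to −0.070 with every array kept and from −0.21 to −0.083 with an array left out. Neither passed anywhere (smallest adjusted p = 0.433, limma). The number of tested miRNAs past the threshold ran from 0 to 2 with an array left out. It was 2 without GLE replicate 2, where 107 had an unadjusted p under 0.05, and 0 elsewhere. The cause of each shift was not tested.

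The change of miR-181a-5p relative to miR-181b-5p was positive in all 19 alternatives, all added after seeing the data (0.068 to 0.23). Several of these could not change the outcome. Scaling an array cancels in a difference within it, and the 2 other filters kept the same probes of both miRNAs. The percentile over all probes, no scaling and these filters thus returned the reported 0.162. With the groups apart, leaving out an array cannot turn the sign or make them overlap. The groups overlapped in 5 alternatives: normexp, the deposited values, the brightest probe and 2 combinations of single probes. The brightest probe repeats the combination of both 14-base probes (0.092), so its overlap is not a separate one. With the replicate block, in which the labels' numbers 1 to 3 are a block, the differences were 0.017 and −0.15 with adjusted p of 0.980 each and 0 miRNAs passed. The numbers were not taken to pair the arrays, since deviations of same-numbered arrays correlated at −0.62, −0.18 and 0.37, although these arrays share the second position index and the block thus also stands for that index. The block moved 0 calls. The medians of the other miRNA lists kept their sign under the 10 alternatives with every array kept, also added after seeing the data; 4 lists changed sign with an array left out.

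Not run was a slide or scan block, since all arrays shared 1 slide and 1 scan. No difference is reported for miR-181c-5p, miR-181d-5p or the 3p arms, nor for the a and b pair against the c and d pair. The setting without a detection filter fitted all 1881 miRNAs, these included, but on floored values. Of the 24 values of the c and d probes, 23 stood at or below the floor, and the arms were detected on 0 arrays. Signal over background thus limits what can be said of them.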
